A study of Mus musculus with 4 samples.

Results

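Of the 33820 CTCF peaks found in cultured mouse cortical neurons, 648 lay at lncRNA genes that stand apart from protein-coding genes. A peak was counted here when its summit, on chromosomes 1 to 19, lay within 1 kb of either end of a RefSeq lncRNA gene, outside every protein-coding gene and more than 5 kb from every protein-coding gene end. The 648 peaks were 1.96% of the 33075 peaks on these chromosomes, and 6.56% of the 9879 that were equally far from coding genes. They touched 656 lncRNA genes in 669 pairs of a peak and a gene. The choice used position only and no measured strength. Of the 656 genes, 2 had no end of their own that met the distance, and 23 of the 648 peaks (3.55%, exact binomial 95% interval 2.26 to 5.28) were also inside or within 1 kb of another kind of non-coding gene or a pseudogene.

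Long non-coding RNAs are transcripts made and processed much like messenger RNA that do not encode a protein. Some act as RNA, some matter mainly for the microRNAs or small nucleolar RNAs in their introns, and for most, among them most genes that have only a numbered Gm symbol, no role is known. CTCF is a zinc finger protein that recognises a long, directional DNA motif, and it halts the cohesin ring as the ring extrudes chromatin loops. CTCF sites are found at many promoters of coding genes as well as far from any gene, so lncRNA genes away from coding genes allow their ends to be looked at without a coding promoter beside them.

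The cells were wild-type neurons from the cortex of Swiss-Webster embryos at day 16, kept for 13 days in culture, with no treatment in the labels; their culture text also describes adding etoposide, and no sample is labelled with it. There were 2 CTCF immunoprecipitations, described by the labels as biological replicates, and 2 inputs, and the data are 1 joint list of the peaks that both immunoprecipitations shared, at most 0.05 by IDR (the irreproducible discovery rate). There was 1 condition, so no groups of samples could be compared, no test was made, and each comparison is a description of classes of peaks or genes in this list. Strength means the authors' −log10 p of a peak, given for each replicate in a first and a second replicate column, and joint strength is their sum. Library depth is unknown here. The list holds no expression values, so neither the neuronal identity of the cells nor the transcription of these lncRNA genes could be checked.

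The sequences shown first are CTCF motif matches at lncRNA gene starts. They were found in 26 of the 97 start windows that held a summit, and gene finishes were not searched. The motif searched was CCA, any 2 bases, AG, any 2 bases and GGC, on both strands of RefSeq promoter windows (GRCm38.p6) that run from 250 bases before a gene's start to 50 after it. The 9 sites below come from the 9 strongest peaks with a summit in such a window and a match there. Each is written 5′ to 3′ along the motif's own strand, with the matched 12 bases in capitals and 14 bases on either side.
Gm41414 and Gm52265, chr16:5306760-5306799, plus strand: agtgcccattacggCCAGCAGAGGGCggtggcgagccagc
Gm17382, chr17:26886285-26886324, minus strand: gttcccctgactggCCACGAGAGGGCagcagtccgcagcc
Gm41504, chr16:94713902-94713941, minus strand: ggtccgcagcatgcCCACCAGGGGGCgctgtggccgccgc
Gm30771, chr7:38061209-38061248, plus strand: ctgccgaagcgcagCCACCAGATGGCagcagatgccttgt
Gm38293, chr1:180768631-180768670, plus strand: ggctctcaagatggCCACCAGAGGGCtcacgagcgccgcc
Gm12273, chr11:61950799-61950838, plus strand: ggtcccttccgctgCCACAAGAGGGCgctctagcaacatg
Gm30470, chr11:79224603-79224642, plus strand: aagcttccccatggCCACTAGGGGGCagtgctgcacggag
Gm33663, chr7:143466484-143466523, minus strand: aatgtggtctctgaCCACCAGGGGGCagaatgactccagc
E330013P04Rik, chr19:60144521-60144560, minus strand: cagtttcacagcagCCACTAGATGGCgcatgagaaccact
Of these, the sites of Gm41504, Gm30470 and Gm33663 also match the stricter form of the motif, CCAC, any base, and AGGGGGC.

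The first question was at which end of a lncRNA gene CTCF sat. RefSeq's promoter table gave the strand, and so the start and the finish, of 6131 of the 8044 stand-alone lncRNA genes, those with at least 1 end outside and over 5 kb from coding genes. Starts carried these peaks more often than finishes: 317 of 5269 stand-alone starts had one within 1 kb (6.02%, exact Clopper-Pearson 95% interval 5.39 to 6.69) against 196 of 5652 finishes (3.47%, interval 3.01 to 3.98). These intervals, like all those given here, cover counting error only. A summit near an end that was itself inside a coding gene or within 5 kb of a coding gene end was not counted. Of the 4325 genes over 2 kb long with both ends stand-alone, 236 had a peak at the start, 126 at the finish and 11 at both. Among the 340 of them with a peak at a single end, it was the start in 225 (66.2%, interval 60.9 to 71.2). In terms of peaks, 298 lay at a start, 180 at a finish, 15 at a start and a finish, and 155 at genes whose strand the table does not give, 26 of those on chromosome 18. These 26 are all the peaks counted on chromosome 18, which therefore enters neither the start and finish results nor the promoter windows.

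Around the starts the summits gathered just upstream. The 250 bases before the start held 87 summits, against a median of 21.5 (range 12 to 29) in the 32 bins of 250 bases lying 1 to 5 kb away, a 4.05-fold higher count. The next 3 bins downstream, inside the gene, held 48, 44 and 41, while the 3 bins farther upstream held 27, 23 and 23. Within 100 bp of a start there were 75 summits, and within 100 bp of a finish 13. Finishes showed no such peak: their 8 bins within 1 kb held 16 to 31 summits, inside the range of 9 to 34 farther out. In all, the summit lay inside the lncRNA gene for 352 of 648 peaks (54.3%, interval 50.4 to 58.2).

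**Figure D1:**
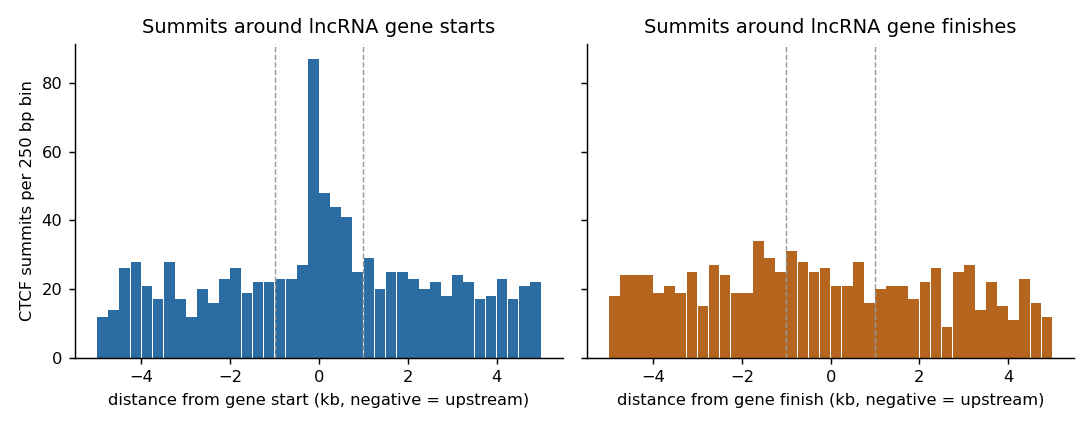
CTCF summits outside and over 5 kb from coding genes, counted in bins of 250 bp (y axis) by distance in kb from stand-alone lncRNA gene starts (left) and finishes (right), with transcription running to the right and dashed lines at 1 kb. The bin just upstream of the start holds 87 summits, while no bin around the finishes exceeds 34.

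The preference for starts was clearer for curated genes. Genes with a curated RefSeq transcript had a peak at 8.60% of 1326 starts (interval 7.14 to 10.2) and 3.42% of 1522 finishes. Genes known only from predicted transcripts had one at 5.15% of 3943 starts (interval 4.48 to 5.88) and 3.49% of 4130 finishes. Protein-coding genes, counted with the same 1 kb window and every autosomal peak, had a peak at 25.3% of 16457 starts and 6.93% of finishes. The lncRNA genes with no stand-alone end had one at 16.2% of 3160 starts, between the other classes, and at 7.25% of finishes, above both, but their windows can hold the peaks of the coding gene beside them.

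The share of lncRNA ends with a peak fell with distance from coding genes. Of starts 5 to 10 kb from the nearest coding gene end, 60 of 546 (11%) had a peak, with an interval of 8.49 to 13.9. From 10 to 25 kb it was 7.36%, from 25 to 50 kb 7.56%, from 50 to 100 kb 5.47% and from 100 to 250 kb 3.18%. Beyond 250 kb, 18 of 672 starts had a peak (2.68%, interval 1.60 to 4.20). Finishes went from 6.75% of 696 to 6 of 693 (0.866%, interval 0.318 to 1.87), and lay below starts at every distance. However, the intervals of starts and finishes overlap in every distance class but 25 to 50 kb. The density of all CTCF summits at these distances was not counted, so whether the fall is particular to lncRNA ends was not tested.

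**Figure D2:**
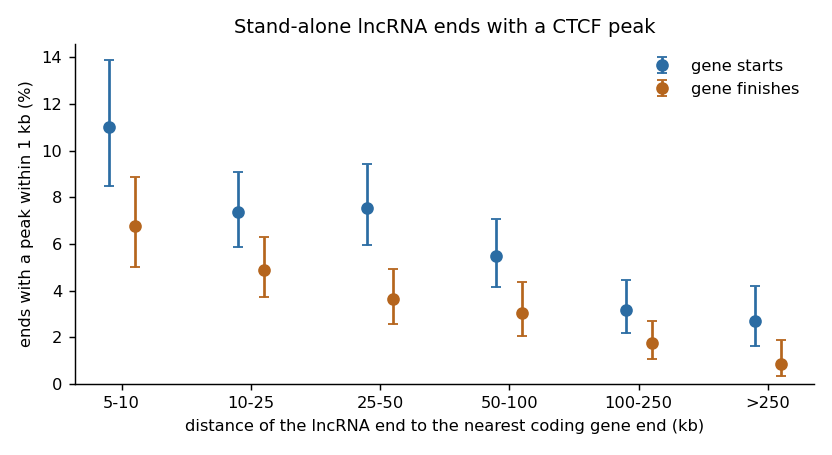
Share of stand-alone lncRNA ends with a CTCF summit within 1 kb (y axis, percent, with exact 95% binomial intervals) by distance of the end to the nearest coding gene end in kb (x axis), for gene starts and finishes. Starts fall from 11% to 2.68% and finishes from 6.75% to 0.866%.

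Short lncRNA genes had a peak at an end more often than long ones. It was 75 of 651 genes of up to 2000 bp (11.5%, interval 9.17 to 14.2), 8.93% of 3348 genes up to 10000 bp, 7.81% of 2574 up to 30000 bp and 79 of 1471 longer genes (5.37%, interval 4.27 to 6.65). Over all 8044 stand-alone genes the share was 8.13%, which serves below as the background for groups of genes. Chromosomes ranged from 4.87% of 534 genes on chromosome 13 to 12.1% of 423 on chromosome 11, and chromosome 2 carried the most of these peaks, 61.

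The promoter sequences were then compared between lncRNA genes with and without CTCF. A start window held a summit at 97 stand-alone lncRNA genes, through 96 different peaks. Of these windows 26 held the motif (26.8%, interval 18.3 to 36.8), against 88 of the 4797 windows of stand-alone lncRNA genes with no peak within 1 kb (1.83%, interval 1.47 to 2.26) and 2.47% of all 31396 promoter windows of the table on the autosomes other than chromosome 18. Where the summit lay within 1 kb of the start but outside the window, 7 of 210 windows held it (3.33%, interval 1.35 to 6.75). Among windows of coding genes with a summit inside, 139 of 1377 did (10.1%, interval 8.55 to 11.8). The stricter form was found in 7 of the 97 windows, in 1 of the 4797 without a peak, and in 0.207% of all windows. Read the other way, 26 of 121 stand-alone lncRNA start windows with the motif held a summit (21.5%, interval 14.5 to 29.9), against 71 of 4983 without it (1.42%). Without genes of a Gm or LOC symbol only 3 of 31 windows with a summit held the motif (9.68%). Most of the matches were thus at Gm and LOC genes. With so few other windows, whether the 2 kinds of gene differ was not tested. A match is a run of letters and not a shown binding site, and a window without one can have other forms of the motif or a site outside it.

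The matches lay close to the summits. In all 26 windows the nearest match was within 50 bp of the summit, at a median of 16 bp and at most 37 bp. It read along the gene's direction in 15 windows and against it in 11. At Gm41504 the summit lay 11 bp upstream of the start and 3 bp from its match. At Gm17382, which has 2 matches in the window, the summit was 65 bp upstream and 7 bp from the nearer one. Gm41414 and Gm52265 point away from each other, and both windows hold the same match, 2 or 3 bp from the shared summit depending on which gene's direction is used for counting.

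CpG content differed along with occupancy. A window was called CpG-rich when its observed over expected CpG ratio was at least 0.6 and its GC content at least 50%, features common at promoters active in many tissues. This held for 24 of the 97 lncRNA windows with a summit (24.7%, interval 16.5 to 34.5), 17 of the 210 with a summit elsewhere within 1 kb (8.10%) and 131 of the 4797 with none (2.73%, interval 2.29 to 3.23). The share was 34.1% of all windows and 79.5% of coding windows with a summit inside. The motif was held by 5 of the 24 CpG-rich windows and by 21 of the 73 others, beside 26.8% of all 97.

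**Figure D3:**
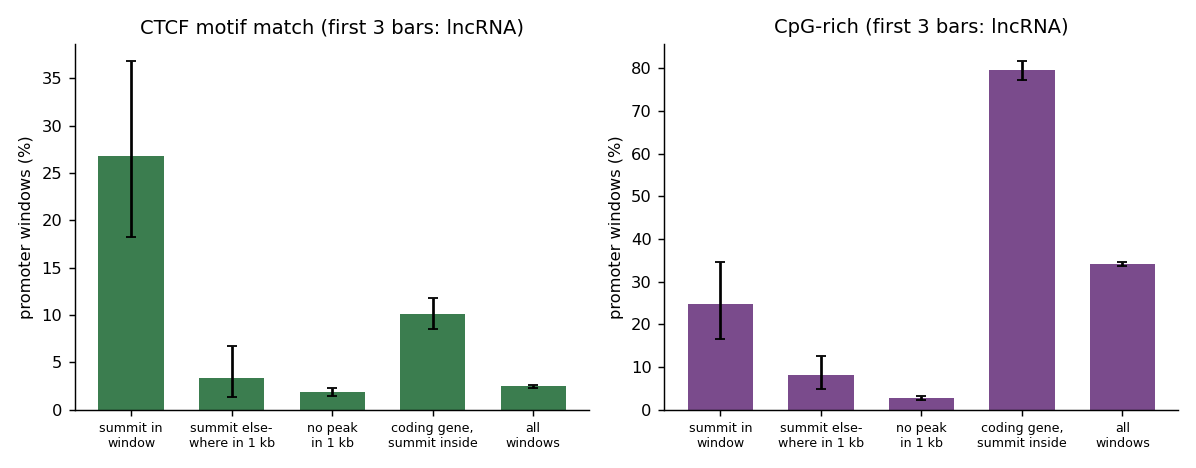
Share of 300-base promoter windows (y axes, percent, with exact 95% binomial intervals) with a match to the CTCF motif (left) and called CpG-rich (right). The first 3 bars are stand-alone lncRNA genes by where the summit lies, then come coding genes with a summit inside and all windows; the motif share is 26.8% in the first bar and 1.83% in the third.

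Peaks at stand-alone lncRNA genes were of middling to high strength. Their median joint strength was 201.2 (quartiles 101.0 to 382.1, range 34.2 to 2161, exact 95% interval of the median 177.9 to 227.1), against 167.9 over all autosomal peaks, 178.8 at the 9231 other peaks equally far from coding genes, 162.3 at 5986 coding gene ends and 203.3 at 2748 peaks in the flanks of coding genes, between those ends and the 5 kb limit. By replicate column the medians were 35.1 (first) and 160.8 (second), above the 26.4 and 148.4 of the other distant peaks in both columns. A joint strength of 500 or more was reached by 90 of 648 (13.9%, interval 11.3 to 16.8), beside 10.3% of all autosomal peaks, 7.57% of the other distant peaks and 19.5% of coding gene ends. An IDR of at most 0.01 was met by 83.0%, beside 77.6% of all autosomal peaks. Widths were ordinary, with a median of 1115 bp against 1129 bp over all. The nearest other summit lay a median of 12.8 kb away, against 15.4 kb for the other distant peaks.

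Strength followed position at the gene. The 133 peaks within 250 bp of a start, those also at a finish included, had a median of 284.3 (quartiles 151.5 to 453.8), the 170 at a start alone and farther than 250 bp from it 179.0 (77.2 to 375.8), and the 180 at finishes 167.6 (81.6 to 334.3). In the first column these medians were 61.5, 32.4 and 29.6, and in the second 216.0, 139.6 and 135.6, so the order was the same in both. The quartile ranges overlap widely. By distance from coding genes, the 133 lncRNA peaks at 5 to 10 kb had a median of 251.3 and the 32 beyond 250 kb 179.7, against 199.4 and 141.0 for the other distant peaks. At 50 to 100 kb the lncRNA peaks were lower, 147.7 against 168.4, and at 25 to 50 kb they were lower in the second column, 152.8 against 155.9.

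**Figure D4:**
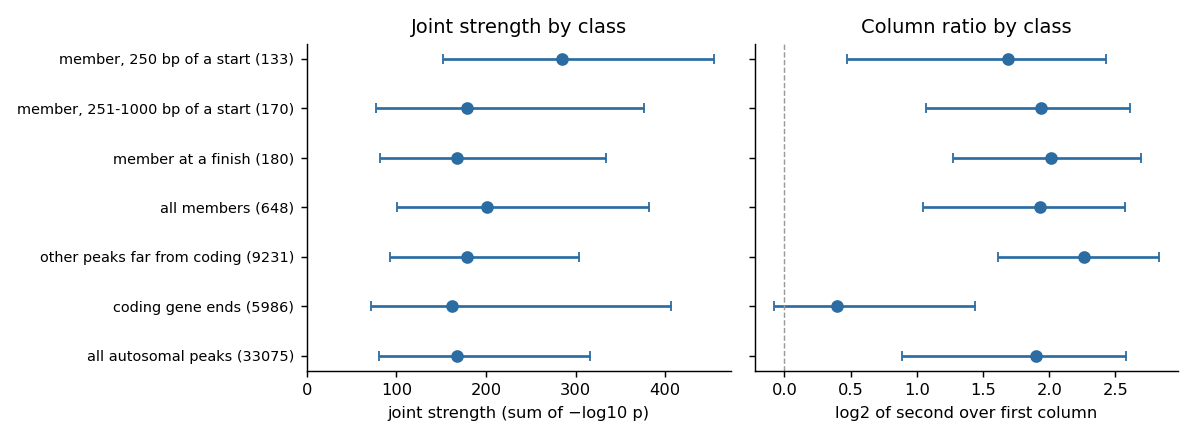
Median (points) and quartiles (bars) of joint strength (left) and of the log2 ratio of the second over the first replicate column (right) for classes of peaks, with the number of peaks in brackets; the dashed line marks equal columns. Peaks within 250 bp of a start have the highest median strength shown, 284.3, and coding gene ends the lowest ratio, 0.40.

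The balance of the replicate columns varied between classes of peaks and with the base content of the start window. The second column was the higher one for 607 of the 648 peaks (93.7%, interval 91.5 to 95.4), beside 90.7% of all autosomal peaks, 97.6% of the other distant peaks and 71.1% of coding gene ends. The log2 ratio of second over first had a median of 1.93 over these peaks, 2.26 over the other distant peaks and 0.40 at coding gene ends. Among the lncRNA start windows with a summit, the 24 CpG-rich ones had a median ratio of 0.20, and the 73 others 1.86. Their medians were 251.6 and 47.4 in the first column, and 337.4 and 202.8 in the second, with joint strengths of 526.2 and 250.9. A ratio of at most 1 was found in 20 of the 24 and 17 of the 73. Windows not called CpG-rich but high in GC included Gm17382 (59.7% GC, ratio 0.06) and Gm38293 (64.7%, -0.33). CpG-rich windows of lower GC included Gm4319 (50%, 1.98) and Tbx3os2 (50.7%, 1.31). CpG ratio, GC content and strength were not separated here. In coding windows with a summit inside, the ratio was 0.18 where the window was CpG-rich and 0.68 where it was not. What sets the columns apart, whether depth, shearing or the cultures themselves, was not tested. The highest ratio was 4.88, at Gm29883, with 8.3 in the first column and 245.7 in the second, followed by 4.51 at Gm46882, 4.47 at Gm35922, 4.40 at Gm31080 and 4.35 at Gm39902. The lowest was -1.38 at LOC108167356, with 72.3 and 27.7. Next came the snoRNA host gene Snhg20 at -1.27, then 1700096K18Rik (-0.84), Gm8493 (-0.83) and 6330420H09Rik (-0.75).

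**Figure D5:**
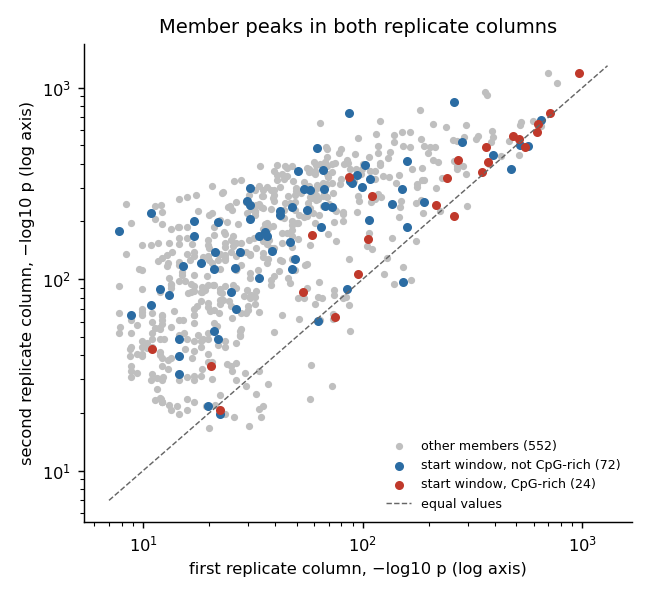
Strength of each of the 648 peaks in the first (x) and second (y) replicate column, −log10 p on log axes. Red points are the 24 peaks with a summit in a CpG-rich lncRNA start window, blue points those in other start windows, grey points the rest; most red points lie near the dashed line of equal values.

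The strongest of all these peaks lay at Gm31812, a gene on the minus strand of chromosome 1 (52107175 to 52113890). The peak, chr1:52113491-52114652, had 965.8 in the first column and 1195.5 in the second, a joint strength of 2161.3 that ranks 24 among all autosomal peaks. Its summit was 82 bp upstream of the start, in a CpG-rich window with no match to the motif as spelled. That window is shown whole because it is the most strongly bound lncRNA promoter of the set; it covers chr1:52113841-52114140, read along the minus strand.
Gm31812: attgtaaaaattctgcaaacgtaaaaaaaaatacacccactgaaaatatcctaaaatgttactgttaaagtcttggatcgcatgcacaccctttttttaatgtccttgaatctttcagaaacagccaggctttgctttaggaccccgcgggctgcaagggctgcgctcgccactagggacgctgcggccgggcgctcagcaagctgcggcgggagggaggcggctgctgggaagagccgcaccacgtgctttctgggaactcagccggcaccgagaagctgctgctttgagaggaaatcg
For comparison, the window of Gm41504 has a match 3 bp from the summit, in capitals; it covers chr16:94713858-94714157, also on the minus strand, and its peak had 626.7 and 642.2 in the columns.
Gm41504: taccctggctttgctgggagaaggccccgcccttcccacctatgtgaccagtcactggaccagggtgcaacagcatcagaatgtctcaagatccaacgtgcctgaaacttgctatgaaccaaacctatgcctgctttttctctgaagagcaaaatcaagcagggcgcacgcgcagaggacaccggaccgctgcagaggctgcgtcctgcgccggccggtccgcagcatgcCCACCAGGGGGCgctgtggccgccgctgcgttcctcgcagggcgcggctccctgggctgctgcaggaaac

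The 12 strongest peaks had joint strengths from 2161.3 down to 1185.7 and were all at genes with Gm symbols. Gm and LOC symbols are the rule in this set, with 6641 of the 8044 stand-alone genes and 527 of the 654 with a peak. After Gm31812 came the peak at the finish of Gm40337 on chromosome 5, with 698.2 and 1197.9 in the columns and its summit 558 bp beyond the gene. Gm33628 on chromosome 12, a gene of 1677 bp, had 765.9 and 1052.0 at a summit 109 bp inside its start. The shared peak of Gm41414 and Gm52265 on chromosome 16 had 709.7 and 733.3, and that at Gm17382 on chromosome 17 had 650.8 and 678.6. Gm32518 on chromosome 3, of unknown strand here, had 361.3 and 948.0, and Gm26901 on chromosome 1, a gene of 83.5 kb, had 367.3 and 911.4. At Gm17762 (649.9 and 627.2), Gm41504, Gm39606 (596.1 and 667.6), Gm38882 with Gm38883 (618.9 and 584.0) and Gm51701 (526.3 and 659.4) the columns differed by a log2 ratio of at most 0.33 in size. Of these 12 peaks, 3 had a ratio of at least 0.78 and 9 a ratio from -0.08 to 0.46, a cut placed after the values were seen. Over all autosomal peaks the ratio had a median of 1.90 and quartiles of 0.89 to 2.58. Equally strong peaks elsewhere in the list were not looked at, so low ratios cannot be called particular to these peaks. The weakest peaks, at Gm39769, Gm39719, Gm40435, Gm20670 and Gm33995, had 34.2 to 34.9.

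Pairs of lncRNA genes sometimes shared a peak. This was so for 21 of 648 peaks (3.24%, interval 2.02 to 4.91), with a median joint strength of 324.9 against 200.6 for the 627 peaks of a single gene. The shared peak lay within 1 kb of 2 starts on opposite strands in 8 cases, at a start and a finish in 5, at 2 finishes in 3, and at least 1 strand was not known in 5. Of these 8, the summit lay upstream of both starts only at Gm41414 and Gm52265; elsewhere it was inside 1 of the genes. Pairs of the latter kind included 4833412C05Rik with Gm34350 (565.1 and 497.8 in the columns) and Gm13652 with 2600014E21Rik (544.8 and 486.7). C130071C03Rik, which hosts a microRNA precursor expressed in neural progenitors, shared a weaker peak with Gm52046 (62.4 and 60.4), 167 bp upstream of its own start and 441 bp inside Gm52046.

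Conversely, 12 lncRNA genes had more than 1 peak at their ends. Gm52046 on chromosome 13, a gene of 6724 bp, was alone in having 3, of 672.6, 122.8 and 46.8, the middle one being the shared peak just named. Snhg17 had a strong peak at its start and a weak one at its finish, 1099.1 and 101.1. Pairs unequal in both replicate columns also stood at Gm41692 (856.0 and 69.6), Gm41856 (852.0 and 160.3) and Gm32143 (384.1 and 56.7). At Gm33940 (790.9 and 257.7) the peaks had 119.9 and 128.9 in the first column and 671.0 and 128.8 in the second, so they differed in the second alone. At Gm32137 (437.9 and 245.7) they had 47.4 and 50.0 in the first and 390.5 and 195.7 in the second. The sums were closer at 4930553P18Rik, 467.5 and 428.4, with 93.1 and 60.7 in the first column and 374.4 and 367.7 in the second. At Gm39360 the sums of 329.0 and 309.1 hid opposite orders, 38.1 and 106.2 in the first column and 290.9 and 202.8 in the second.

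Among named lncRNA genes, the hosts of small nucleolar RNAs (Snhg genes) most often had a peak. In their introns these genes carry small RNAs, many of which guide ribosomal RNA modification. Of 17 found, 6 were stand-alone and 5 of these had a peak, beside the background of 8.13%; with so few genes this is a count only. Each of the 5 had a peak near its start. Snhg17, on chromosome 2 from 158353700 to 158361522, had 260.1 in the first column and 839.0 in the second, 109 bp upstream of its start. Snhg15 on chromosome 11 had 369.9 and 410.5, 131 bp upstream. Snhg5 on chromosome 9 had 109.6 and 142.9, 411 bp upstream. Snhg11, a neuron-rich transcript whose gene starts at 158375713 beside Snhg17, had 74.8 and 63.3, 117 bp upstream. Snhg20 on chromosome 11 had 57.2 and 23.8, 86 bp inside the gene. The columns thus spanned a first-over-second order at Snhg11 and Snhg20 and the reverse at the other 3. Snhg4 on chromosome 18 had none, its nearest summit being 3.7 kb away. Of the 11 Snhg genes close to coding genes, 8 had a summit within 1 kb of an end, beside 20.1% of all 4278 lncRNA genes with no stand-alone end, where a coding promoter can lie too.

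Beside the background of 8.13%, 3 of 17 stand-alone brain lncRNA genes had a peak. They were Snhg11, C130071C03Rik, whose summit lay 167 bp upstream of its start, and Oip5os1, a conserved transcript that triggers decay of a microRNA, with 20.3 and 35.2 in the columns at a summit 11 bp inside the start. The other 14 had none by the rule. Miat, an abundant nuclear transcript of neurons, had its nearest summit 1.4 kb from an end, Pantr2 1.4 kb, Mir124-2hg 1.5 kb, Mir9-3hg 1.9 kb, Six3os1 2.2 kb, Sox1ot 6.0 kb, Sox2ot 6.7 kb, Dlx6os1 13.5 kb, Mir124a-1hg 30.5 kb, Tunar 43.7 kb, Otx2os1 95.8 kb and Rmst 142.9 kb. Pantr1 (0.8 kb) and Lhx1os (0.5 kb) had a summit within 1 kb that was too close to a coding gene or inside one. Long members can hold summits away from their ends: Sox2ot held 6 and Pantr1 5 inside or within 1 kb, while Rmst, Tunar, Otx2os1 and Dlx6os1 held 0.

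Imprinted lncRNA genes, expressed from a single parental copy, had 1 peak among 5 stand-alone members. It lay 692 bp beyond the finish of Mirg, a microRNA-bearing gene on chromosome 12, with 86.3 and 127.4 in the columns. Its neighbours Rian and Meg3 had no summit within 88.4 and 178.4 kb of an end. H19 had its nearest summit 1.1 kb from an end, just beyond the window, and Ipw 373.5 kb. Of the 4 stand-alone Hox lncRNA genes none had a peak, the nearest summits lying 2.3 kb from Evx1os, 3.1 kb from Hottip, 18.7 kb from Hotair and 83.8 kb from Halr1. Beside the background of 8.13%, the imprinted and Hox groups are too small to be more than counts.

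Widely expressed lncRNA genes had 2 of 9 stand-alone members with a peak, beside the background of 8.13%. Neat1, the scaffold of paraspeckles on chromosome 19, had a weak peak of 18.4 and 31.2 whose summit lay 188 bp beyond its upper end, and 5.3 kb from a coding gene. Dleu2 on chromosome 14, a microRNA host, had 62.8 and 80.8, 450 bp upstream of its start. Malat1, the neighbour of Neat1, had no summit nearer than 1.3 kb, Norad 1.4 kb, Lncpint 17.7 kb, Pvt1 50.9 kb and Dancr 100.8 kb. Tug1 and Crnde had summits within 0.2 and 0.3 kb that did not meet the distance from coding genes. Among microRNA host genes found by symbol, 2 of 13 had a peak, Mirc35hg (124.6 and 106.7) and Mir1a-1hg (35.1 and 21.7), each about 0.8 kb inside the gene. Among genes named as opposite-strand or overlapping transcripts, 4 of 68 had one (5.88%, beside the background of 8.13%): Rab10os (511.5 and 540.0, 46 bp inside its start), Tbx3os2 (109.7 and 272.5, 127 bp upstream and with a motif match), Oip5os1, and Irx3os at its finish (15.8 and 23.7). A further 13 of the 68 had a summit within 1 kb of an end that was too close to a coding gene or inside one. The like share over all stand-alone genes was not counted, and the 8.13% does not stand for it.

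The listed symbols 2900097C17Rik, Dlx1as and Nespas were not matched to a lncRNA gene and were not analysed here.

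Some of these peaks were far from any coding gene. The farthest was at Gm33963 on chromosome 11, 1090.1 kb from a coding gene end, with 67.1 and 406.4 in the columns. Gm12069 on the same chromosome stood at 1085.7 kb (19.7 and 150.0), Gm38584 on chromosome 7 at 741.7 kb (45.8 and 270.9), Gm35827 on chromosome 15 at 638.4 kb (27.5 and 138.8) and Gm34182 on chromosome 18 at 626.9 kb (47.4 and 202.2). In all 5 the second column was the higher, by a log2 ratio of 2.09 to 2.93. This is the usual order, found in 93.7% of the 648 peaks and 97.6% of the other distant peaks, whose median ratio was 2.26. At the other edge, the nearest member to a coding gene, at Gm20556, lay 5055 bp away (39.4 and 53.2), and the nearest peak left out 4999 bp away (8.8 and 56.3). At the window's edge, the member at Gm12764 lay 998 bp from the gene end (17.1 and 47.8), and the first peak left out 1005 bp (154.0 and 456.4).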

How the data were processed

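The labels describe 2 replicates of neurons, fixed for 10 minutes in 1% formaldehyde and sheared to 200 to 500 bp. The submitters' processing notes name MACS2, BWA, SAMtools, Trimmomatic and FastQC, and the genome builds GRCm38.p6 and mm10, without versions or roles. Not given in the sources used here are the peak threshold and any use of the inputs.

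The deposited list has 20 columns in the IDR program's layout. Its −log10 p values and the −log10 IDR (capped at 5) were made by the authors and depend on depth, and the deposited score is a rescaled IDR. Joint strength equalled the sum of both columns in all 33820 rows (tolerance 0.001). The columns are not tied to a labelled replicate, and inputs have no values of their own here.

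The gene table was RefSeq GRCm38.p6, with 49595 genes kept on assembled chromosomes. Sequences are RefSeq's, and 6131 of 8044 stand-alone lncRNA genes had an entry in the promoter table. Summit positions are 1-based, and counting from 0 also gave 648 members. The peaks described, the gene lists and motifs were chosen with earlier results of these data known; start against finish, CpG content, transcript status, shared peaks and the X chromosome were added after the values were seen. Named genes are the 12 strongest and 5 weakest members, up to 8 genes with more than 1 peak, the 5 farthest from coding genes, the 5 highest and lowest column ratios, those at the thresholds and the stand-alone genes of the lists. Gm39360 and further genes outside that rule were chosen after their values were seen. The code was tested on simulated data. Software was scipy 1.17.1, pandas 2.3.3, matplotlib 3.10.9 and numpy 2.4.6 under Python 3.11.15.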

Additional observations from a re-analysis of the deposited data

How the results depend on the processing

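The ratio of the share of starts to the share of finishes with a peak was 1.73 and stayed above 1 under all 12 alternatives, from 1.22 with windows of 5 kb to 2.39 with windows of 500 bp and without Gm and LOC genes; these were run after the data were seen. Other values moved mainly with how many peaks a setting lets in. The number of peaks was 383 with windows of 500 bp and 1937 with 5 kb, 361 above the median joint strength, 352 and 372 above the median of the first and second column, and 130 without Gm and LOC genes. In the same order, the share of genes was 4.77%, 21.1%, 4.59%, 4.48%, 4.74% and 9.05%; it was 8.81% at 2 kb and 7.35% at 10 kb from coding genes, 6.79% at an IDR of 0.01 and 11.1% by any base of the peak. The median joint strength was 255.1 at an IDR of 0.01, 350.8 above the median joint strength, and 355.8 and 342.2 above those of the columns; leaving out a column gave 35.1 and 160.8. The share stronger in the second column was 95.6% above the median joint strength, 90.3% and 97.3% above those of the columns and 88.5% without Gm and LOC genes. The share of summits inside the gene was 47.4% with windows of 5 kb and 45.4% without Gm and LOC genes. The motif share was 9.68% without those genes and 7.22% for the strict motif. No paired analysis was possible because the list joins both replicates and holds no input values. Unknown depth limits comparisons between the columns.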

Other observations

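The X chromosome lies outside the rule used above. By the same distances 12 of its 729 peaks (1.65%) would count, with a median joint strength of 136.7 against 114.4 for all X peaks. Of the lncRNA genes known from X inactivation and nuclear organisation, Firre held 4 summits in its 72.2 kb, all weak, with joint strengths from 38.9 to 46.4. Xist held 1 of 115.5, Ftx 1 of 117.8 and Jpx 0.

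Identical values in both replicate columns were shared by 5 of the 648 peaks with another of them, among them the weak peaks at Gm20670 and Gm33995. Of the 33075 autosomal peaks, 6886 shared both values with another autosomal peak. The counts are not comparable, since the first looked for matches only among the 648 peaks.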
